A study of Mus musculus with 8 samples.

Results

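The 10 genes described here encode the core of the microRNA machinery, chosen by name as Drosha, Dgcr8, Xpo5, Dicer1, Tarbp2, Ago1, Ago2, Tnrc6a, Tnrc6b and Tnrc6c, with older names such as Rnasen, Eif2c1 and Eif2c2 counted as well. They were measured by 14 of the 55681 probes of the array, which carry 34836 gene names. Liver RNA came from 4 male NZO mice (strain NZO/HiBomDife, obese and diabetes susceptible) and 4 male B6 mice (strain C57BL/6, lean and diabetes resistant), all 6 weeks old. Both strains received a diet with 45% fat, so that no group on another diet belongs to the comparison, and 1 array was hybridised per mouse. The strains differ across the whole genome and not at a single allele, and each is named below with the number of the mouse. Each level is the log2 intensity of a probe after the 75th percentile of its array was subtracted, and a difference is the mean NZO level minus the mean B6 level.

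MicroRNAs are made in steps. In the nucleus, the Microprocessor of the RNase Drosha and its RNA-binding partner Dgcr8 cuts a hairpin out of the primary transcript, and exportin 5 (Xpo5) carries the hairpin to the cytoplasm. Dicer1, helped by Tarbp2, cuts the hairpin to a short duplex, of which 1 strand is loaded into an Argonaute protein such as Ago1 or Ago2. The GW182 proteins Tnrc6a, Tnrc6b and Tnrc6c bind Argonaute and recruit the enzymes that remove the poly(A) tail and the cap of the target. Base pairing of the target with the seed, bases 2 to 8 of the microRNA, decides which transcripts are silenced. In mouse liver, loss of Dicer1 in hepatocytes is known to disturb hepatocyte survival and lipid content.

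Of the 10 genes, 3 also contain microRNAs within their own span, all 7 of them on the strand of the host gene, according to RefSeq on GRCm38.p6. They are shown because they are products of the same machinery made from its own genes, and the seed is in capitals. Dgcr8 (chr16:18253948-18289251, minus strand) holds 2 hairpins, and cutting of the Dgcr8 transcript by the Microprocessor itself is a known feedback on Dgcr8. Xpo5 (chr17:46202811-46243598, plus strand) and Tnrc6b (chr15:80711313-80941086, plus strand) hold 1 hairpin each.
mmu-miR-3618-5p: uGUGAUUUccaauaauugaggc
mmu-miR-3618-3p: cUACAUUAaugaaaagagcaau
mmu-miR-1306-5p: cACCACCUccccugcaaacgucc
mmu-miR-1306-3p: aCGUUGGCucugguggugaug
mmu-miR-693-5p: cAGCCACAuccgaaaguuuuc
mmu-miR-693-3p: gCAGCUUUcagauguggcuguaa
mmu-miR-5113: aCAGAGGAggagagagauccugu
The first 4 lie in Dgcr8, the next 2 in Xpo5 and the last in Tnrc6b. None of the 7 seeds occurred in another of the 1679 mature microRNA names of the table. Levels of these microRNAs were not analysed here, since the probes described read the transcripts of the protein-coding genes.

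Each probe is a stretch of 60 bases, and 3 are shown as examples of what a spot reads, with positions on mm9 as the array files give them. They are the brighter of the Drosha probes (A_55_P2039603, chr15:12864767-12864826, plus strand), the dimmer of the Ago1 probes (A_55_P2184751, chr4:126117202-126117261, minus strand) and the Tnrc6b probe (A_55_P1987534, chr15:80759793-80759852, plus strand).
Drosha A_55_P2039603: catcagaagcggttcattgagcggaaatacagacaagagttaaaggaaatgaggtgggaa
Ago1 A_55_P2184751: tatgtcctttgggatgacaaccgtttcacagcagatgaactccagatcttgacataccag
Tnrc6b A_55_P1987534: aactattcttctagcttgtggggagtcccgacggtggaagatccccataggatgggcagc

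None of the 14 probes passed an adjusted p of 0.05 in limma with Benjamini-Hochberg adjustment over all 27623 probes tested, in which all 14 were included. Across all probes, 6.82% were called higher and 7.43% lower in NZO. The study's methods name a p of 0.05 together with a log2 fold change of 0.7, and the p is taken here as unadjusted. By these thresholds, 5.19% of all probes were higher and 7.06% lower, and again 0 of the 14. At an unadjusted p of 0.05 alone, 1 of the 14 passed, Dgcr8, beside 27.8% of all probes. Dgcr8 was also the only one whose strains did not overlap, which held for 22% of all probes. The median difference was -0.10 over the 14 probes and 0.02 over all probes, and the median size of a difference was 0.19 and 0.24. In both strains the machinery was expressed: 13 of the 14 probes exceeded the background clearly on all 8 arrays, and the dimmer Ago1 probe did so on 7.

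**Figure D1:**
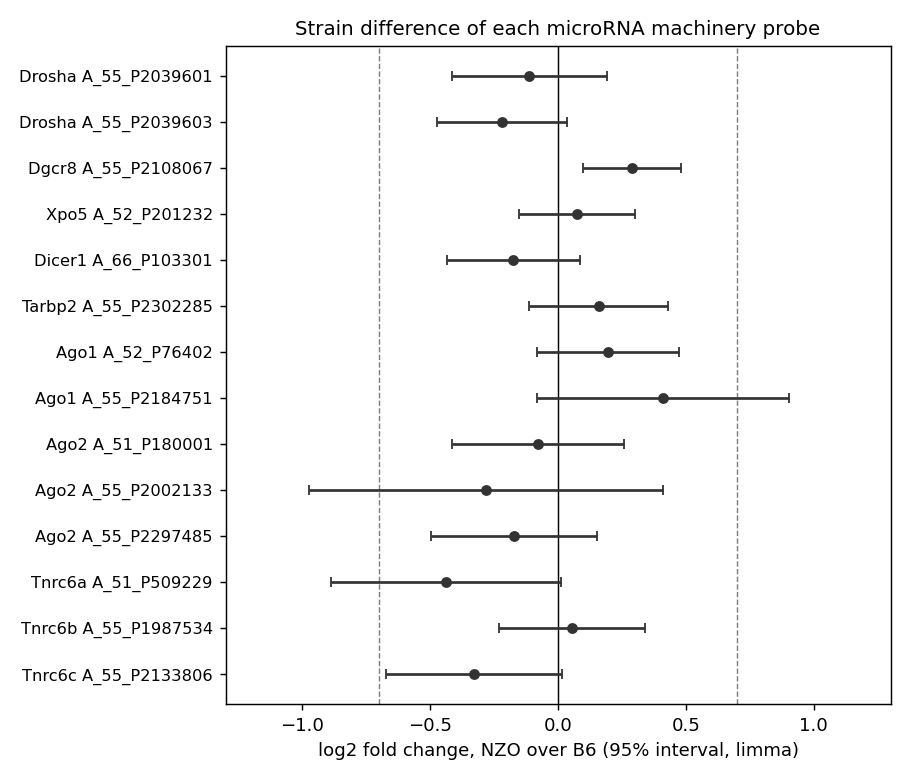
The log2 fold change of NZO over B6 (x axis) with its 95% interval in limma is plotted for each of the 14 probes, and dashed lines mark 0.7 in either direction. The interval of Dgcr8 alone lies on 1 side of 0, and 11 of the 14 intervals lie between the dashed lines.

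The width of the intervals sets what could be seen with 4 mice per strain. For 11 of the 14 probes (78.6%) the 95% interval of the difference lay within 0.7 log2 units of 0 in either direction, compared with 53.2% of all probes. The exceptions were the dimmer Ago1 probe, Ago2 probe A_55_P2002133 and Tnrc6a. The largest difference among the 14 had a size of 0.44, and 27.7% of all probes exceeded it. A p that misses the threshold does not show that a level was equal in the strains, and the p-values measure the spread among 4 mice of a strain.

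The Microprocessor held the difference nearest to the threshold. Dgcr8, the RNA-binding subunit, was at 0.37, 0.33, 0.26 and 0.31 in NZO 007, 003, 009 and 011. In B6 011, 010, 015 and 009 it was at 0.11, -0.03, 0.00 and 0.04. Every NZO mouse lay above every B6 mouse, and the spread was narrow in both strains. The difference was 0.29 ± 0.08 (SE, n = 4 per strain; 95% interval 0.10 to 0.48), a 1.22-fold level, with an adjusted p of 0.0554 in limma. It was 0.32 within the first scan day (3 NZO and 2 B6 mice), and 0.29 within the second and 0.34 within the 1 slide that held both strains, each with 1 NZO mouse and 2 B6 mice. The adjusted p in limma within these batches was 0.232, 0.356 and 0.444. After quantile normalization, or after subtraction of the median of the probes above background on all arrays, its adjusted p in limma was 0.0390 and 0.0419. With the deposited table, which holds raw median intensities, the difference was 0.05.

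Drosha, the RNase that makes the first cut, was read by a pair of probes that lie close together on mm9. The brighter probe, A_55_P2039603, was at 0.57, 0.80, 0.93 and 0.79 in NZO 007, 003, 009 and 011. Its B6 levels were 1.14, 0.89, 0.99 and 0.93 in mice 011, 010, 015 and 009. The lowest level was that of NZO 007, and the strains overlapped by a single NZO mouse, number 009. The difference was -0.22 ± 0.11 (SE), with an adjusted p of 0.244 in limma. Probe A_55_P2039601 gave -0.11 ± 0.13, with -0.69 in NZO 007, -0.38 to -0.29 in the other NZO mice and -0.43 to -0.06 in B6. The difference of this probe was -0.024 without NZO 007 and -0.028 without B6 015. The pair had the same sign and a Pearson r of 0.60 over the 8 arrays.

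**Figure D2:**
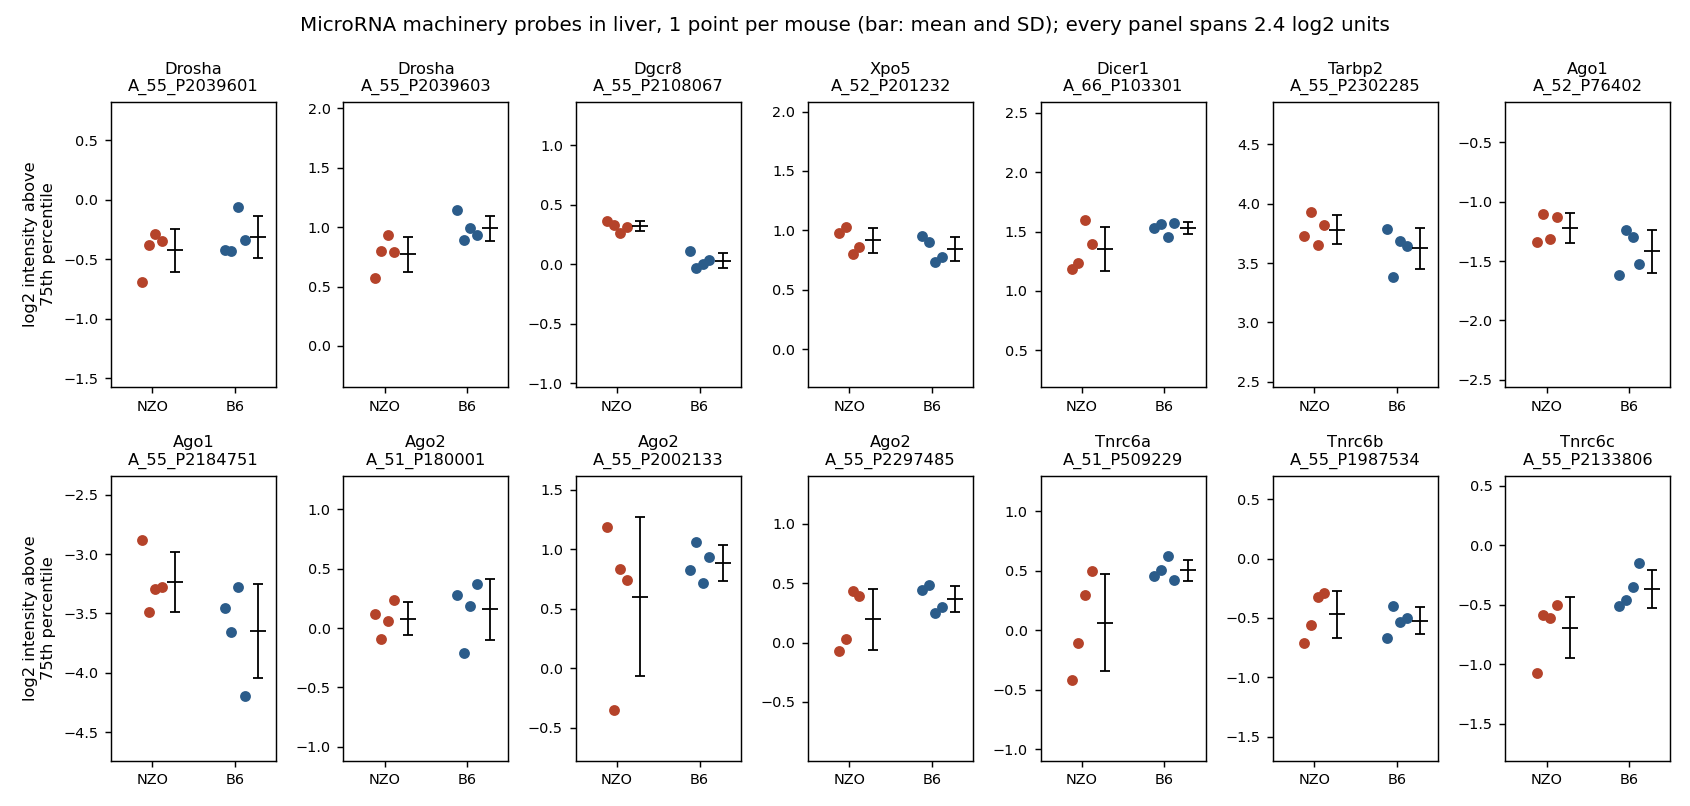
Levels of the 14 probes (y axis, log2 intensity relative to the 75th percentile of the array) are plotted with 1 point per mouse and bars for the mean and SD of each strain, and every panel spans the same range. The strains are apart for Dgcr8, while NZO 003 lies far below the other mice for Ago2 probe A_55_P2002133 and the NZO mice are spread widely for Tnrc6a.

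Export and the Dicer step did not differ beyond the spread between mice. Xpo5, the exporter, ranged from 0.81 to 1.03 in NZO and from 0.73 to 0.95 in B6, a difference of 0.08 (95% interval -0.15 to 0.30). The Xpo5 difference was 0.038 without NZO 003 and 0.040 without B6 015. Dicer1 (A_66_P103301) was at 1.18, 1.24, 1.60 and 1.40 in NZO 007, 003, 009 and 011, and at 1.53, 1.56, 1.45 and 1.57 in B6 011, 010, 015 and 009. NZO 007, 003 and 011 lay below every B6 mouse, but NZO 009 was the highest of all. The difference was -0.18 ± 0.11 (SE; 95% interval -0.44 to 0.08), with an adjusted p of 0.358 in limma. Tarbp2, the partner of Dicer1, ranged from 3.65 to 3.93 in NZO and from 3.38 to 3.79 in B6, with a difference of 0.16 ± 0.12. Without B6 010 the Tarbp2 difference was 0.077. The sign of the Xpo5 and Tarbp2 differences turned with the deposited table, to -0.12 and -0.11.

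Among the Argonautes, which hold the mature microRNA, no probe passed the threshold. The brighter Ago1 probe (A_52_P76402) ranged from -1.34 to -1.10 in NZO and from -1.62 to -1.24 in B6, a difference of 0.20 ± 0.12 (SE), and 0.13 without B6 011. The other, A_55_P2184751, gave 0.41 ± 0.22, with -2.88, -3.49, -3.30 and -3.28 in NZO 007, 003, 009 and 011 and -3.46, -3.66, -3.28 and -4.20 in B6 011, 010, 015 and 009. B6 009, the lowest, was the array on which this probe was not well above background. Without B6 009 the difference was 0.23, and it turned to -0.02 when the slide entered as a fixed term. The probe was tested only because it was above background on all 4 NZO arrays.

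Ago2, the Argonaute that can cut its target, had the least stable probe. A_55_P2002133 was at 1.19, -0.35, 0.83 and 0.74 in NZO 007, 003, 009 and 011, and at 0.82, 1.06, 0.71 and 0.93 in B6 011, 010, 015 and 009. NZO 003 was far below the other 7 mice, which lay close together. The difference was -0.28 ± 0.30 (SE; 95% interval -0.97 to 0.41), and 0.04 without NZO 003. When the slide was a fixed term, which compares NZO 003 with the B6 mice of its slide, it was -1.24 with an adjusted p of 0.0566 in limma. A_51_P180001, from -0.10 to 0.24 in NZO and from -0.21 to 0.37 in B6, differed by -0.08 ± 0.15, and NZO 003 did not stand apart from the other mice on it. The difference of A_51_P180001 was -0.20 without B6 010 and -0.0072 without B6 009. The third probe named for Ago2, A_55_P2297485, which the files assign to a cDNA, ranged from -0.07 to 0.43 in NZO and from 0.25 to 0.48 in B6. Its difference was -0.17 ± 0.14, and -0.083 without NZO 007. Over the 8 arrays, the 3 Ago2 probes correlated with each other with Pearson r between 0.07 and 0.31, so that they did not move together from mouse to mouse.

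The GW182 genes, which link Argonaute to deadenylation, held the largest difference. Tnrc6a was at -0.42, -0.11, 0.29 and 0.50 in NZO 007, 003, 009 and 011. Its B6 levels, 0.46, 0.51, 0.62 and 0.42 in mice 011, 010, 015 and 009, lay within a range of 0.2 log2 units. NZO 007, 003 and 009 were below all B6 mice, and NZO 011 was among them. The difference was -0.44 ± 0.20 (SE; 95% interval -0.89 to 0.01), with an adjusted p of 0.189 in limma. Without NZO 007 it was -0.28. It was -0.044 with the mouse number as a replicate block, which rests on mice 009 and 011 of both strains. With slide as a fixed term, which compares NZO 003 with the B6 mice of its slide, it was -0.68. It was -0.34 within the first scan day and -0.86 within the second, whose only NZO mouse was number 007.

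Tnrc6c was at -1.08, -0.59, -0.61 and -0.51 in NZO 007, 003, 009 and 011, and at -0.51, -0.46, -0.35 and -0.15 in B6 011, 010, 015 and 009. NZO 007 was again the lowest, and the highest NZO mouse met the lowest B6 mouse. The difference was -0.33 ± 0.15 (SE; 95% interval -0.67 to 0.02), with an adjusted p of 0.200 in limma, and -0.20 without NZO 007. Tnrc6b ranged from -0.71 to -0.29 in NZO and from -0.67 to -0.40 in B6, and its difference of 0.05 ± 0.12 changed sign between settings. It was -0.12 with the deposited table and -0.09 within the slide that held both strains.

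The machinery varied somewhat more between NZO mice than between B6 mice, with a median SD over the 14 probes of 0.18 and 0.13, while all probes had 0.23 and 0.19. NZO 007 was the lowest of the 4 NZO mice for 8 of the 14 probes, with a median deviation of -0.14 from the NZO mean. The same array carried the highest sum of 4 skeletal muscle markers (Ckm, Acta1, Myh4 and Tnnt3), at 4.15 on the log2 scale, compared with -2.88, -2.64 and -1.72 in NZO 003, 009 and 011. In B6 the sum was -0.06, 2.51, 0.49 and -1.34 in mice 011, 010, 015 and 009, and over all 8 arrays the brightest probe was that of Myh4, a fast muscle myosin. No muscle marker was at background on all arrays, and the part of muscle RNA in the levels of NZO 007 was not tested.

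The hepatocyte markers Alb, Ttr, Apoa1, Cps1 and Tat were bright, with a sum between 11.6 and 11.9 on every array, and 0 of the 5 were called in limma. Of 7 markers of leukocytes and Kupffer cells, 4 were lower in NZO (Itgax, Cd68, Clec4f and Marco) and 0 passed as higher, with differences of 0.41 for Lyz2 and 0.33 for Cd3e, and with the brightest probe that of Clec4f, a Kupffer cell lectin. Itgax was well above background on 2 of the 4 NZO arrays and on all B6 arrays, so that it was tested through B6. Their sum lay between 4.92 and 5.38 in NZO and between 5.78 and 6.42 in B6. Of 4 red blood cell markers, Hba-a1 and Alas2 were higher in NZO, with the brightest probe that of Hba-a1 and a sum of 8.20 to 8.88 compared with 7.28 to 7.70. Sinusoidal endothelial markers went both ways, with Stab2 higher and Lyve1 lower in NZO of 6 measured at their brightest probes, although the other 2 tested Stab2 probes had the opposite sign, 0 of 5 stellate cell markers were called, and Sox9 was lower among the 3 tested markers of biliary epithelium. Car3 was higher in NZO, but the adipocyte markers Adipoq, Plin1 and Lep were at background on all arrays, and the exocrine pancreas markers were so for 4 of 6. In whole liver, fewer cells of a type and less RNA per cell cannot be told apart, and the part of these cells in the levels of the machinery was not tested.

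Of the 91 pairs of member probes, 9 had a Pearson r over 0.7 across the 8 arrays and 4 had an r under -0.7, and the median r was 0.00. The highest was 0.90 for Dicer1 with Ago2 probe A_55_P2297485, followed by 0.85 for that Ago2 probe with Tnrc6a and 0.82 for Tnrc6a with Tnrc6c. The lowest was -0.83 for the dimmer Ago1 probe with Tnrc6c, and Dgcr8 had -0.73 with Tnrc6a. These values describe 8 arrays that share strain, slide and scan day. Over the same arrays, the patterns most like Dicer1 were those of Ttc30a1, Zfp566 and Phc3, each with r = 0.98, and 163 of the other 27622 probes passed 0.9. For Ago2 probe A_55_P2002133 they were Gm11669, Atp6v1g2 and Itpkb, each with r = 0.98, and 52 probes passed 0.9. On this Ago2 probe NZO 003, at -0.35, lay far below the other mice, so that these r values rest largely on that array.

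Around this core, 54 further genes of the pathway were examined, each at its brightest probe, and 53 could be tested. In limma, 4 rose in NZO at an adjusted p of 0.05, Srrt, Prkra, Cnot8 and Mov10, and 0 fell, beside 6.82% and 7.43% of all probes. At an unadjusted p of 0.05, 6 were higher and 1 lower, beside 27.8% of all probes in either direction. The lower one was Adarb1, with a difference of -0.41 ± 0.12 (SE) and an adjusted p of 0.0566 in limma. The adjusted count of higher genes was 2 without NZO 003, NZO 009, B6 011 or B6 009, beside 4.98% to 5.76% of all probes. The lower count was 1 without NZO 003, beside 6.29% of all probes. The deposited table gave 1 higher and 4 lower, beside 3.58% and 12.1% of all probes. No gene was called higher when the slide (fixed term) or the mouse number (replicate block) entered the fit, beside 1.82% and 0.261% of all probes. The slide fit compares NZO 003 with B6 010 and B6 015, and the block fit rests on mice 009 and 011 of both strains. The differences in these fits were 1.07 and 0.97 for Srrt and 0.75 and 0.60 for Prkra. They were 0.62 and 0.68 for Cnot8 and 0.48 and 0.32 for Mov10. The median difference of the 53 was 0.02, the same as that over all probes. The 4 genes act at different steps: 1 of 6 Microprocessor cofactors, 1 of 3 genes of Dicer partners and RNA editing, 1 of 14 deadenylation genes and 1 of 6 other proteins associated with the silencing complex. No gene was called among the 6 chaperones of Argonaute loading, the 5 tested genes of let-7 control and tailing or the 10 of decapping and decay.

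**Figure D3:**
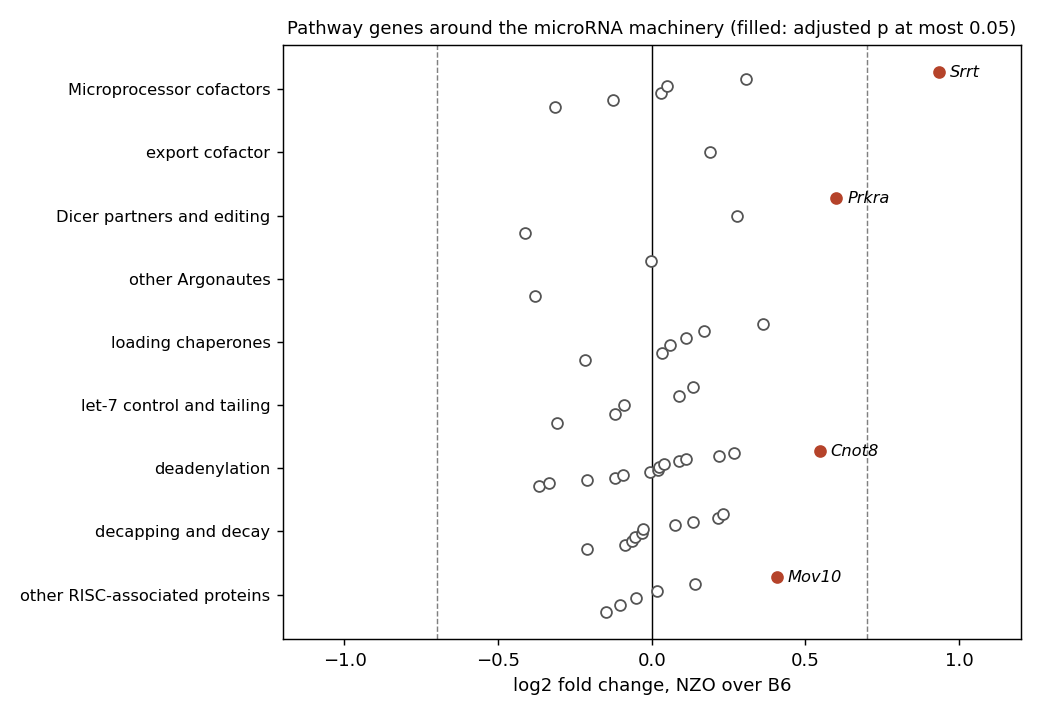
The log2 fold change of NZO over B6 (x axis) is plotted for the 53 tested pathway genes in their groups, with filled points for an adjusted p of at most 0.05 in limma and dashed lines at 0.7 in either direction. Srrt alone passes the dashed line, and the other called genes, Prkra, Cnot8 and Mov10, lie between 0.41 and 0.60.

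Srrt, also called Ars2, a partner of the nuclear cap-binding complex that promotes cutting of primary microRNAs, was the only pathway gene past the adjusted threshold with a log2 fold change of at least 0.7. Its levels were 0.99, 1.34, 1.16 and 1.22 in NZO 007, 003, 009 and 011, and 0.25, 0.37, 0.17 and 0.18 in B6 011, 010, 015 and 009. The strains were wide apart, with every NZO mouse above every B6 mouse. The difference was 0.93 ± 0.11 (SE; 95% interval 0.69 to 1.18), with an adjusted p of 0.000687 in limma. It was 0.97 within the first scan day, with an adjusted p of 0.0253 in limma. Within the second day it was 0.78 and within the slide that held both strains 1.07, each with 1 NZO mouse, and the adjusted p in limma was 0.124 and 0.111. With the deposited table the difference was 0.60, under 0.7, with an adjusted p of 0.00499 in limma. When the slide entered as a fixed term the difference was 1.07 and the call was lost (adjusted p 0.0548 in limma). Srrt had 1 probe on the array, A_51_P420236.

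The other called genes are named because they are few, and were chosen after their values were seen. Prkra, also called PACT, a second RNA-binding partner of Dicer1, was at 1.75 to 2.06 in NZO and at 1.21 to 1.41 in B6, a difference of 0.60 ± 0.11 (SE), with an adjusted p of 0.00689 in limma. Cnot8, a deadenylase of the CCR4-NOT complex, was at 3.13 to 3.61 in NZO and at 2.72 to 3.12 in B6, 0.55 ± 0.14 higher with an adjusted p of 0.0375 in limma. Mov10, an RNA helicase found with Argonaute, was at 3.22 to 3.45 in NZO and at 2.82 to 3.06 in B6, 0.41 ± 0.10 higher with an adjusted p of 0.0339 in limma. For these 3 the strains did not overlap either, which held for 22% of all probes. Such separation is likely in genes picked by their adjusted p. Among uncalled pathway genes, the strains also did not overlap for Adar and Lsm1, higher in NZO, and Adarb1, lower in NZO. The call of Prkra held without any 1 mouse but was lost with the deposited table, where the difference was 0.30 with an adjusted p of 0.123 in limma, and when the slide entered as a fixed term (0.75, adjusted p 0.120 in limma), while those of Cnot8 and Mov10 were each lost without 6 of the 8 mice in turn, with differences of 0.48 to 0.66 for Cnot8 and 0.37 to 0.45 for Mov10 over the 8 fits. Both calls were also lost with the deposited table, where the differences were 0.33 and 0.19, without a filter on dim probes and when the slide entered as a fixed term. The Cnot8 call was lost with the scan day as a term (0.50) and with the test named in the methods (0.55) as well. The Cnot8 difference was 0.21 within scan day 2. The Mov10 call was also lost with quantile normalization and with the 75th percentile of probes above background on all arrays. Its difference was 0.36 in both, with an adjusted p of 0.0518 and 0.0533 in limma.

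For the remaining Argonautes, Ago3 and Ago4, the strains overlapped. Ago3 was at -2.78, -3.92, -2.54 and -2.87 in NZO 007, 003, 009 and 011 and between -2.82 and -2.46 in B6, a difference of -0.38 ± 0.28 (SE). NZO 003 was far below the others, and the difference was -0.082 without it and -1.27 when the slide entered as a fixed term. Ago3 was not well above background on 1 NZO array. Ago4 ranged from -0.11 to 0.36 in NZO and from -0.36 to 0.32 in B6 at its brighter probe, with a difference of -0.00 ± 0.18 and an interval of -0.40 to 0.40.

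**Figure D4:**
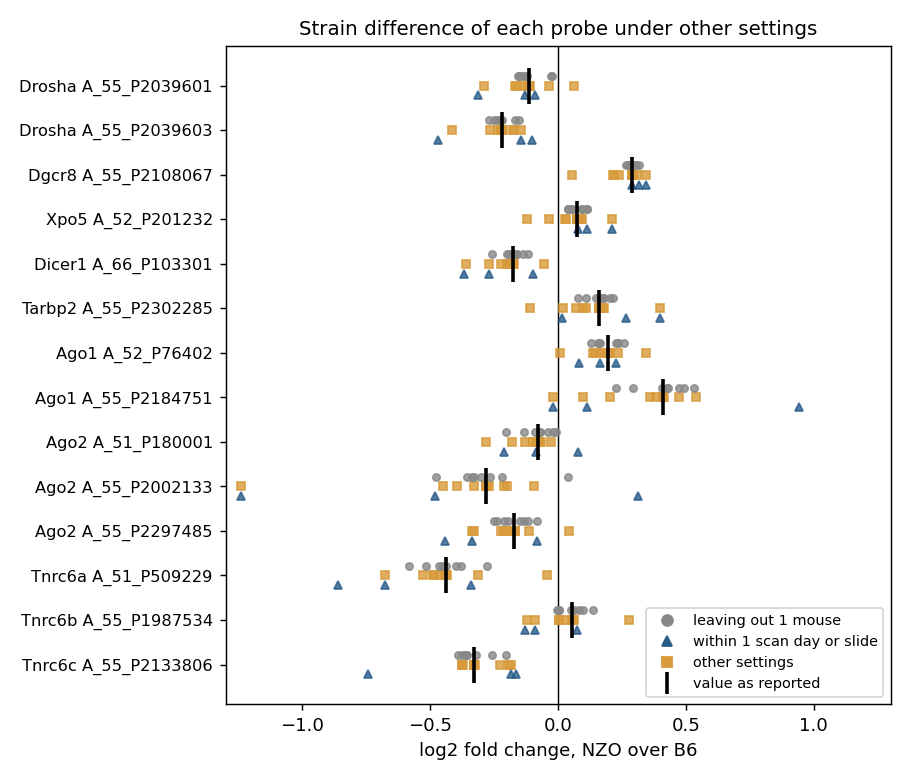
The log2 fold change of NZO over B6 (x axis) of each of the 14 probes is plotted as reported (black bars) and under the other settings (circles, leaving out 1 mouse; triangles, within 1 scan day or slide; squares, other settings). Dgcr8 stays to the right of 0 and Tnrc6a, Tnrc6c and Dicer1 to the left in every setting run, whereas Tnrc6b and Ago2 probe A_55_P2002133 lie on both sides.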

How the data were processed

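For every spot of an array, the authors deposited the intensity and flags, scored 0 or 1, for spots above background, saturated or outlying. Feature Extraction from Agilent was used in version 11.0.1.1 per the file headers, while the submitters' processing notes name 9.1. The processed signal is the intensity after background subtraction and without scaling across arrays. Within a tolerance of 0.01, the deposited table equals the raw median intensity for 59305 of 59305 spots of every array. The 75th percentile of the processed signal was 119 to 142 in NZO and 137 to 159 in B6, and 50.4% to 60.1% of spots were well above background. The number of arrays limits the precision.

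From the processed signal, control and outlier spots were left out, log2 was taken, the 75th percentile of the array was subtracted and spots of a probe were averaged. Probes that were well above background in all 4 mice of 1 or both strains were tested with limma 3.58.1 (R 4.3.3) without a block, which stands in for the test named in the methods. The fit was tested on simulated data. Sequences were handled with pandas 2.3.3 and plots drawn with matplotlib 3.10.9 in Python 3.11.15. All 10 genes matched RefSeq by symbol.

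The members and the lists were chosen with earlier results of these data known. Named were all members, pathway genes past the adjusted threshold with a log2 fold change of 0.7, Ago3, Ago4, and the 3 probes most like Dicer1 and Ago2. Prkra, Cnot8, Mov10, Adar, Adarb1 and Lsm1 fall outside this rule. The pathway list held Ddx5, Ddx17, Khsrp, Hnrnpa1, Srrt, Ran, Prkra, Adar, Adarb1, the Argonautes Ago3 and Ago4, and genes of Argonaute loading, let-7 control, deadenylation, decapping and silencing complexes. Genes of this list that are not named here are part of the counts. Mouse numbers 009 and 011 occur in both strains, and the labels do not say whether these numbers tie the mice. The alternatives were another background correction (normexp, offset 50), other scalings, the deposited table, other filters on dim probes, slide, scan day or mouse number as a term, the test named in the methods and leaving out each mouse. The comparisons within a scan day or slide were added after the data were seen. Labels do not say whether the mice were littermates.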

Additional observations from a re-analysis of the deposited data

Results flagged for a closer look

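For Cnot8, NZO 007, at 3.13, lay far below the other NZO mice, which were at 3.53, 3.61 and 3.59. The gap to the next mouse was 0.836 of the range of the 4, above the critical value of Dixon's test at the 95% level. The strain difference was 0.66 without NZO 007 and 0.55 with it. Of 40 groups of 4 mice examined in this way, 1 passed the critical value, and chance alone gives about 1 in 20.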

How the results depend on the processing

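Of the 14 probes of the machinery, 0 were called lower by adjusted p, and 0 higher at the thresholds of the methods, under every alternative run. The adjusted count of higher probes became 1, Dgcr8, with quantile normalization and with the median of the probes above background on all arrays. The adjusted p of Dgcr8 in limma was then 0.0390 and 0.0419, beside 7.01% and 7.43% of all probes called higher. The count also became 1 with the test named in the methods, which gave Dgcr8 an adjusted p of 0.0137, beside 4.75% of all probes. Under the other alternatives, the adjusted p of Dgcr8 in limma was between 0.0531 and 0.796. The count of lower probes at the methods thresholds became 1, Ago2 A_55_P2002133, with the slide as a fixed term and within the slide that held both strains, where NZO 003 is the only NZO mouse, and 2, Tnrc6a and Tnrc6c, within scan day 2, where NZO 007 is. In these subsets the lone mouse is assumed to vary like the B6 mice. With the mouse number as a replicate block, 0 of the 14 and 0 pathway genes were called, and 72 and 134 of all probes. Nothing in the labels says whether shared numbers pair the mice. The deviations of mice 009 correlated with r = -0.26 and those of mice 011 with -0.00. Mice of unlike number gave r from -0.35 to 0.35, so that these values cannot decide it.

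Of the pathway genes, 1 was called lower with normexp, quantile normalization, the 75th percentile or the median of probes above background on all arrays and the scan day as a term. These settings called 6.23% to 8.88% of all probes lower. The deposited table gave 1 higher and 4 lower, beside 3.58% and 12.1% of all probes, and brought the median difference of all probes to -0.15. Without a filter on dim probes 2 were higher, with the slide as a fixed term 0, and within scan day 1 it was 1. Of all probes, 2.34%, 1.82% and 2.98% were called higher in these fits. Leaving out 1 mouse at a time gave 2 to 3 higher and 0 to 1 lower, beside 4.98% to 6.72% and 5.38% to 6.76% of all probes. Leaving out mice and keeping to a day or slide used fewer mice, and leaving off the filter tested more probes. Only the mice numbered 009 and 011 set the difference with the replicate block, since no other number occurs in both strains. The slide as a fixed term compared NZO 003 with B6 010 and B6 015 alone. The cause of the other shifts was not tested.

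The sign of the difference turned for these probes. With the deposited table, Xpo5 was at -0.12, Tarbp2 at -0.11 and Tnrc6b at -0.12. With the replicate block, Drosha A_55_P2039601 was at 0.062, Xpo5 at -0.034, Ago2 A_55_P2297485 at 0.041 and Ago4 at 0.075. With the slide as a fixed term and within the slide, Ago1 A_55_P2184751 was at -0.019 and Tnrc6b at -0.091. Within scan day 1, Ago2 A_51_P180001 was at 0.078 and Ago4 at 0.15, and within scan day 2, Ago2 A_55_P2002133 was at 0.31 and Tnrc6b at -0.13. With normexp, Ago3 was at 0.017 and Ago4 at 0.013, and Ago4 was at 0.0081 with quantile normalization and at 0.0033 with the median. Leaving out 1 mouse turned Ago2 A_55_P2002133 (range -0.48 to 0.037), Tnrc6b (-0.0048 to 0.13) and Ago4 (-0.15 to 0.080). Signal over background limits the dimmer Ago1 probe and Ago3.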
